A study of Mus musculus with 12 samples.

Results

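The genes described here are 34 components of the autophagy machinery, chosen as the rows of the count table whose symbol is on a fixed list of core autophagy proteins and cargo receptors. All 34 were among the 15156 table entries with a gene identifier, and all 34 were among the 14392 genes that passed the filter on low counts and were tested. They were grouped by step: 5 initiation genes, 5 membrane and PI3P effectors, 7 lipid kinase genes, 7 conjugation genes, 5 members of the ATG8 family and 5 receptors. RNA-seq was performed on mouse embryonic fibroblasts, all immortalised with the HPV E6 protein, which directs p53 to degradation, and all grown for 24 h in DMEM with 10% fetal bovine serum. Cells of 1 line labelled p27 KO (the KO-labelled line, n = 4 libraries) were set against 2 wild-type lines, p27 WT clone2 (n = 4) and p27 WT clone1 (n = 4). Libraries carry experiment numbers 1 to 4, and no label says whether these came from separate cultures. The p-values therefore reflect the spread between these libraries alone, which may be technical. With 1 KO-labelled line, the genotype and the line cannot be told apart.

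Autophagy encloses cytoplasm in a double membrane, the autophagosome, and delivers it to the lysosome. The ULK kinase complex starts the process, a class III phosphatidylinositol 3-kinase makes the lipid PI3P on the growing membrane, and PI3P-binding and lipid-transfer proteins expand it. A ubiquitin-like conjugation cascade attaches ATG8 proteins (the LC3 and GABARAP subfamilies) to the membrane lipid, and cargo receptors bind ATG8 proteins on one side and ubiquitinated cargo on the other. p27, the product of Cdkn1b, is a cyclin-dependent kinase inhibitor that is also known to act in starvation-induced autophagy.

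Depth ran from 15.4 to 24.0 M counts per library over genes with an identifier. Cdkn1b (chromosome 6, 134897364 to 134902476, all coordinates in GRCm39) had 83.7, 114, 118 and 98.2 CPM (counts scaled to 1 M per library with TMM factors) in the KO-labelled libraries, against 92.7, 120.0, 92.9 and 88.6 CPM in WT clone2 and 86.8, 89.3, 92.3 and 101 CPM in WT clone1. The groups overlapped (log2 fold change 0.12 ± 0.11, edgeR adjusted p = 0.499). Counts summed over a gene do not show which part of it the reads cover, so this gene does not check the label. Of 12 fibroblast markers, 10 were in the table. Their summed level ran from 17797 to 23802 CPM in the KO-labelled line, 21003 to 28326 CPM in WT clone2 and 16964 to 23609 CPM in WT clone1. Vim averaged 5007 CPM in the KO-labelled line, 2757 CPM in WT clone2 and 3433 CPM in WT clone1. Dcn, a matrix proteoglycan of fibroblasts, was near 0 in the KO-labelled line. It averaged 0.27 CPM in the KO-labelled line, 13.8 CPM in WT clone2 and 38.3 CPM in WT clone1. Summed epithelial markers (2 of 6 in the table) stayed at or below 1.49 CPM, endothelial markers (3 of 5) reached 15.8 CPM in WT clone1, macrophage markers (2 of 6) 4.31 CPM and neural markers (2 of 5) 19.1 CPM. No skeletal muscle marker was in the table. Experiment 1 of the KO-labelled line and experiment 1 of WT clone1 stood apart. They had 1.06% and 1.33% of counts in mitochondrial genes, against 1.74 to 3.09% in the other 10 libraries. Ribosomal protein genes took 5.48% and 5.29% of their counts, against 3.34 to 4.94%.

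Few autophagy transcripts separated the KO-labelled line from both wild-type clones, and more of them differed between the 2 wild-type clones, as was the case over all genes. The pooled fit counts the difference between the clones as spread, and the fit with a mean per line does not. Against the pooled wild-type libraries, 3 of the 34 members were called (edgeR quasi-likelihood test, adjusted p under 0.05): Uvrag and Atg14, which define the 2 forms of the lipid kinase complex, rose, and Optn, a receptor, fell. Over all genes tested, 18.8% were called in that comparison (8.47% higher, 10.3% lower), and 9 members had an unadjusted p under 0.05. Without experiment 2 of WT clone2, Atg2b and Ulk2 passed as well, at 0.39 and -0.28 on the log2 scale (edgeR adjusted p = 0.0473 and 0.0466), making 5. Without experiment 4 of the KO-labelled line, 982 of all genes were called lower, against 1481. The median log2 fold change was -0.08 over the members and -0.03 over all genes. Against WT clone2 alone, 11 members were called, 7 higher and 4 lower, where 38.4% of all genes were called (19.2% higher, 19.2% lower). Against WT clone1 alone, 13 members were called, 4 higher and 9 lower, where 36.1% of all genes were called (16.8% higher, 19.3% lower). Between the wild-type lines, 18 members were called in WT clone2 over WT clone1, 5 higher and 13 lower, where 42.6% of all genes were called (20.7% higher, 21.9% lower). There the median log2 fold change was -0.12 over the members and 0.02 over all genes. These comparisons share libraries and are not independent. In the test for any difference among the 3 lines, 22 of the 34 members were called, and 56.6% of all genes.

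Values of single libraries were compared next. In 2 members, Uvrag and Atg14, all 4 KO-labelled libraries lay above all 8 wild-type libraries, against 6.57% of all genes, and in 1, Optn, all 4 lay below, against 7.3% of all genes. Between the wild-type lines, all 4 WT clone2 libraries lay above all 4 WT clone1 libraries in 6 members and below in 13, against 20.5% and 20.4% of all genes. Ranked by line mean, the KO-labelled line was the highest of the 3 in 8 members, the middle one in 15 and the lowest in 11. It was the middle one in 37.1% of all genes tested. WT clone2 was highest in 9 and lowest in 14, and WT clone1 was highest in 17 and lowest in 9. With a random line effect in limma-voom, which used the same correlation for all genes, 0 members were called against the pooled wild type. Counts summed per line leave 1 KO-labelled sum against 2 wild-type sums, too few for a test to decide. Over all genes 230 were called by limma-voom. An unadjusted p under 0.05 was reached by 1589 genes and 3 members in limma-voom. The smallest limma-voom adjusted p of the 3 called members was 0.239, for Uvrag.

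**Figure D1:**
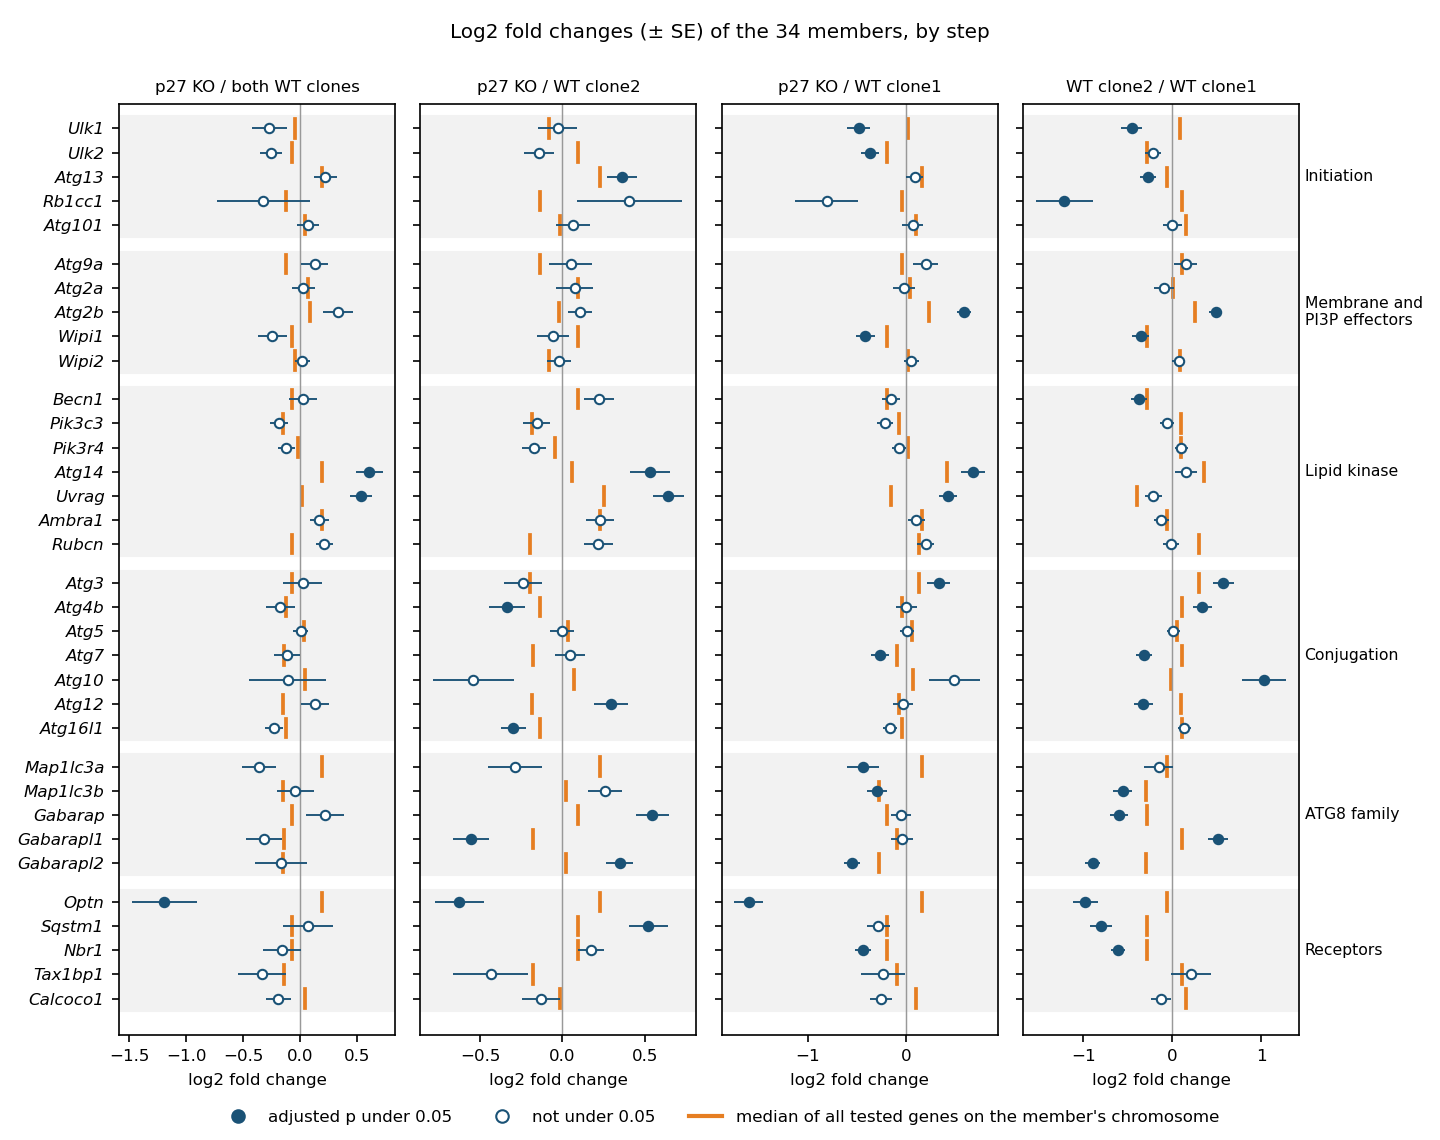
Log2 fold change ± SE (x axis) of the 34 autophagy genes (rows, grouped by step) in 4 comparisons (columns), from edgeR. Filled points have an adjusted p under 0.05 and the orange bars give the median of all tested genes on the gene's chromosome. Uvrag and Atg14 lie to the right and Optn to the left in all 3 columns that involve the KO-labelled line.

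Of the 5 initiation genes, which encode the ULK complex, none was called against the pooled wild type by edgeR or DESeq2, and 1 had an unadjusted edgeR p under 0.05. Between the wild-type lines 3 were called, all lower in WT clone2. Ulk1 (chromosome 5, 110931496 to 110957995), the kinase that starts autophagosome formation, had 55.1, 40.1, 41.5 and 46.6 CPM in the KO-labelled libraries, 48.6, 42.8, 47.8 and 47.8 CPM in WT clone2 and 72.02, 56.6, 56.1 and 71.6 CPM in WT clone1. All 4 WT clone2 libraries and all 4 KO-labelled libraries lay below the 4 of WT clone1. Ulk1 fell by 0.48 ± 0.12 on the log2 scale in the KO-labelled line over WT clone1 (edgeR adjusted p = 0.00597). It fell by 0.45 ± 0.12 in WT clone2 over WT clone1 (edgeR adjusted p = 0.00724). The KO-labelled line over WT clone2 gave -0.03 ± 0.12 (edgeR adjusted p = 0.868). Atg13, the scaffold that the ULK kinases phosphorylate, had 38.1, 31.2, 35.4 and 32.8 CPM in the KO-labelled libraries, 27.2, 25.7, 26.7 and 27.6 CPM in WT clone2 and 36.4, 29.8, 30.2 and 33 CPM in WT clone1. WT clone2 was the low line, and Atg13 rose by 0.36 ± 0.09 in the KO-labelled line over it (edgeR adjusted p = 0.00643). With an offset for each chromosome and library, taken from the median of the chromosome's genes and chosen after the data were seen, that value was 0.13 and no longer called (edgeR adjusted p = 0.315). Atg13 was lower in WT clone2 than in WT clone1 (-0.27 ± 0.09, edgeR adjusted p = 0.0266, lost under 6 of the alternative settings at 0.0507 to 0.117). Ulk2, the paralogue of Ulk1, was lower in the KO-labelled line than in WT clone1 (-0.36 ± 0.09, edgeR adjusted p = 0.00612), and was no longer called with the chromosome offset (-0.17, edgeR adjusted p = 0.15). Atg101, which stabilises Atg13 in the complex, was called in no comparison. Its line means were 18.6 ± 2.13 CPM in the KO-labelled line, 17.8 ± 1.08 CPM in WT clone2 and 17.7 ± 1.71 CPM in WT clone1 (SD, n = 4 each).

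Rb1cc1, which encodes FIP200, the large scaffold of the ULK complex, was picked out after its values were seen. It had 46.3, 121, 139 and 159 CPM in the KO-labelled libraries, 78.2, 80.2, 94.2 and 97.7 CPM in WT clone2 and 108, 239, 261 and 206 CPM in WT clone1. The lowest value of each line was from experiment 1, in WT clone2 by little (78.2 against 80.2 CPM in experiment 2). Those of the KO-labelled line and of WT clone1 were the libraries that stood apart above. Rb1cc1 was lower in WT clone2 than in WT clone1 (-1.22 ± 0.32, edgeR adjusted p = 0.0078). Without those 2 libraries that log2 fold change was -1.42 (edgeR adjusted p = 6.84e-07). Tax1bp1, a ubiquitin-binding cargo receptor chosen in the same way, had 56.7, 117, 121 and 122 CPM in the KO-labelled libraries, 124, 152, 149 and 139 CPM in WT clone2 and 80.1, 147, 137 and 124 CPM in WT clone1. Again the experiment 1 library was the lowest of each line, WT clone2 included, and the gene was called in no comparison (pooled -0.34 ± 0.21, edgeR adjusted p = 0.295). Without both libraries that stood apart the pooled value was -0.23 (edgeR adjusted p = 0.0877). The part that the different shares of mitochondrial and ribosomal protein counts have in these low values was not tested.

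Among the 5 membrane and PI3P effectors, none was called against the pooled wild type by edgeR or DESeq2, and 1 had an unadjusted edgeR p under 0.05. Atg2b and Wipi1 were the 2 that differed between lines. Atg2b (chromosome 12, 105579795 to 105651569), a lipid-transfer protein that feeds the growing membrane, had 125, 131, 131 and 125 CPM in the KO-labelled libraries, 109, 126, 121 and 119 CPM in WT clone2 and 89.9, 80.4, 85.4 and 82.7 CPM in WT clone1. WT clone1 was below both other lines without overlap. The log2 fold change was 0.59 ± 0.07 in the KO-labelled line over WT clone1 (edgeR adjusted p = 2.59e-05) and 0.49 ± 0.07 in WT clone2 over WT clone1 (edgeR adjusted p = 0.000101). Wipi1, a PI3P-binding protein, had 51.4, 40.3, 49.6 and 48.2 CPM in the KO-labelled libraries, 43.9, 52.4, 54.5 and 46.6 CPM in WT clone2 and 60.7, 62, 69.5 and 60.2 CPM in WT clone1. Here WT clone1 was the high line. The log2 fold change was -0.41 ± 0.10 in the KO-labelled line over WT clone1 (edgeR adjusted p = 0.00508) and -0.36 ± 0.10 in WT clone2 over WT clone1 (edgeR adjusted p = 0.0103). With the chromosome offset they were -0.23 and -0.05, neither of them called (edgeR adjusted p = 0.0963 and 0.73). Atg9a, the lipid scramblase carried by autophagy vesicles, Atg2a, the paralogue of Atg2b, and Wipi2, the PI3P effector that recruits the conjugation machinery, were called in no comparison. Their pooled log2 fold changes were 0.12 ± 0.12, 0.03 ± 0.10 and 0.02 ± 0.07. Wipi2 varied little, with 149.9 ± 11.7 CPM in the KO-labelled line, 152 ± 4.32 CPM in WT clone2 and 144 ± 5.81 CPM in WT clone1 (SD, n = 4 each).

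In the lipid kinase step, the kinase core (Pik3c3, the catalytic subunit VPS34; Pik3r4, its regulatory subunit VPS15; and Becn1) forms 1 complex with Atg14, which acts at the forming autophagosome, and another with Uvrag, which acts on endosomes and later autophagosomes. Both of these specifying subunits rose in the KO-labelled line, and edgeR called no core subunit in a comparison with that line. DESeq2 called Pik3c3 against WT clone1, where edgeR gave -0.22 ± 0.08 (adjusted p = 0.0515). Uvrag (chromosome 7, 98533079 to 98790496) had 70.7, 77.5, 60.1 and 69.2 CPM in the KO-labelled libraries, against 41.6, 41.7, 49.4 and 45.3 CPM in WT clone2 and 55.1, 53.9, 50.2 and 46.9 CPM in WT clone1. The lowest KO-labelled library was above the highest wild-type one. The log2 fold change of Uvrag was 0.53 ± 0.10 against the pooled wild type (edgeR adjusted p = 0.00217). It was 0.64 ± 0.10 against WT clone2 (edgeR adjusted p = 0.000135) and 0.43 ± 0.09 against WT clone1 (edgeR adjusted p = 0.00302). WT clone2 over WT clone1 gave -0.21 ± 0.10 (edgeR adjusted p = 0.0898). Atg14 (chromosome 14, 47778235 to 47808106) had 12.4, 13.96, 12.4 and 14.9 CPM in the KO-labelled libraries, against 9.91, 10.1, 9.73 and 7.39 CPM in WT clone2 and 8.22, 9.18, 8.29 and 7.69 CPM in WT clone1, again without overlap. Its log2 fold change was 0.61 ± 0.12 against the pooled wild type (edgeR adjusted p = 0.0029). By line it was 0.53 ± 0.12 against WT clone2 (edgeR adjusted p = 0.00389) and 0.68 ± 0.12 against WT clone1 (edgeR adjusted p = 0.000718). Genes of chromosome 14 as a whole were higher in the KO-labelled line, by a median of 0.42 against WT clone1 and 0.18 against the pooled wild type on the log2 scale. With the chromosome offset, Atg14 was at 0.37 against the pooled wild type (edgeR adjusted p = 0.0401) and at 0.27 against WT clone1, where it was no longer called (edgeR adjusted p = 0.0975). For Uvrag on chromosome 7 the same offset gave 0.50 pooled (edgeR adjusted p = 0.00194). The chromosome 7 median was 0.01 pooled, but 0.25 against WT clone2 and -0.15 against WT clone1.

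Among the core subunits, Becn1 had line means of 34.99 ± 1.90 CPM in the KO-labelled line, 30.03 ± 3.16 CPM in WT clone2 and 38.9 ± 2.09 CPM in WT clone1 (SD, n = 4 each). Among these comparisons, Becn1 was called only in WT clone2 over WT clone1 (-0.37 ± 0.09, edgeR adjusted p = 0.00397). Pik3c3 averaged 22.97 ± 1.43 CPM in the KO-labelled line, 25.6 ± 1.44 CPM in WT clone2 and 26.7 ± 1.25 CPM in WT clone1. Its pooled log2 fold change of -0.19 ± 0.08 missed the threshold (edgeR adjusted p = 0.109). Pik3r4 averaged 38.8 ± 1.58 CPM in the KO-labelled line, 43.8 ± 2.38 CPM in WT clone2 and 40.8 ± 2.48 CPM in WT clone1. Its pooled value was -0.12 ± 0.07 (edgeR adjusted p = 0.273). Rubcn, an inhibitor that binds the Uvrag-containing complex, and Ambra1, a Beclin 1 regulator, had pooled values of 0.21 ± 0.08 and 0.16 ± 0.08. They were called in no comparison by edgeR (adjusted p = 0.079 and 0.19 pooled), and Rubcn was called in the pooled one by DESeq2 (adjusted p = 0.0358). DESeq2 also called both against WT clone2.

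Promoters were read from the RefSeq table (250 bases before to 50 after the annotated start), which held 28 of the 34 members, and each one printed here was located by an exact match to GRCm39. They are shown for the 3 members that separated the KO-labelled line from all wild-type libraries and for Gabarapl2, whose adjusted p was the lowest of the members between the wild-type clones. Capitals mark CACGTG, the E-box bound by MiT/TFE and other basic helix-loop-helix factors, which among these 4 was in the Atg14 window alone, across its annotated start. That RefSeq start lies inside the Atg14 span given above, which ends at 47808106. The windows lie at chr7:98790302-98790601 (minus strand), chr14:47805842-47806141 (minus strand), chr2:5068879-5069178 (minus strand) and chr8:112667085-112667384 (plus strand).
Uvrag: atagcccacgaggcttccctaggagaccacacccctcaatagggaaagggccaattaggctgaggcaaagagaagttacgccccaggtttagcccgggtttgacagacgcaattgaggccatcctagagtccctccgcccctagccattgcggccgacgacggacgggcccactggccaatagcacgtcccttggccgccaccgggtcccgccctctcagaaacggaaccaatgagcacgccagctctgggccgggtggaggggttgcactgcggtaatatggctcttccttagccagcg
Atg14: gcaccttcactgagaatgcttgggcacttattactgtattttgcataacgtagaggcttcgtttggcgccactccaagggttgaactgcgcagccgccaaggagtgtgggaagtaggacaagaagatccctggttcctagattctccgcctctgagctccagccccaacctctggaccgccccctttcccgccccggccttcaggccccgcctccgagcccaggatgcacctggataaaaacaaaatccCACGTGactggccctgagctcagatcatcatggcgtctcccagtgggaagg
Optn: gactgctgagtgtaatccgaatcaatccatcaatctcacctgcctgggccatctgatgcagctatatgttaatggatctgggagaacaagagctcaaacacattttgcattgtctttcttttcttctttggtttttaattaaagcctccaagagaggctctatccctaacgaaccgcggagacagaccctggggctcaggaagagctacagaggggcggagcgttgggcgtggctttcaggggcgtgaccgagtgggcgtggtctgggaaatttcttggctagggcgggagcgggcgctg
Gabarapl2: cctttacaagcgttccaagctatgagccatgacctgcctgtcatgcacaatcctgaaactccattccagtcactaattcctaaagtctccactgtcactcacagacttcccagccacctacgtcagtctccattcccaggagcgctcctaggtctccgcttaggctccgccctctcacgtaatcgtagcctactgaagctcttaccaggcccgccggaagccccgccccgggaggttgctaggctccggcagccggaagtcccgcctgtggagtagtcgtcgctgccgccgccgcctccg

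CACGTG, searched on both strands (it is its own reverse complement), was in the promoters of 5 of the 28 members, Atg14, Atg3, Atg5, Atg7 and Rubcn, and in 8.09% of the 27025 genes of the table. To show its setting, the motif is given in capitals with 17 bases on each side for the other 4 genes. The 2 sites in Atg3 lie at chr16:44979081-44979120 and chr16:44979104-44979143 (plus strand). The others are at chr10:44144304-44144343 (Atg5, plus strand), chr6:114647908-114647947 (Atg7, plus strand) and chr16:32688802-32688841 (Rubcn, minus strand). All of these sites lie inside the annotated span of their gene. That of Atg7 begins at 114620044 and that of Rubcn ends at 32698136.
Atg3 site 1: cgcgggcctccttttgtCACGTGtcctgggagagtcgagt
Atg3 site 2: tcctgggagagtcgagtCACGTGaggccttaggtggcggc
Atg5: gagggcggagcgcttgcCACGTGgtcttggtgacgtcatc
Atg7: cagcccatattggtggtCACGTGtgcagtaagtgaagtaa
Rubcn: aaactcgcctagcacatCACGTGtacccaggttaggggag
The 5 genes did not share a direction. Against the pooled wild type the log2 fold changes were 0.61 for Atg14, 0.02 for Atg3, 0.00 for Atg5, -0.12 for Atg7 and 0.21 for Rubcn. The longer palindrome made of GTCAC followed directly by GTGAC, which contains the E-box, was in 0 of the 28 members and 0.37% of all genes. GTAAACA, a forkhead motif, was in 0 members and 4.05% of genes, and TGATGCAAT, a CARE motif, in 0 members and 0.222% of genes. TGACNNNGC, the core of the antioxidant response element, was in 4 members (Atg13, Map1lc3b, Tax1bp1 and Ulk2) and 13.99% of genes. A match describes the letters of these windows and shows no binding.

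Of the 7 conjugation genes, whose products attach ATG8 proteins to lipid, 5 were called between the wild-type lines, 3 higher and 2 lower in WT clone2. Against the pooled wild type none was called by edgeR, 1 (Atg16l1) by DESeq2, and 1 had an unadjusted edgeR p under 0.05. Atg3 (chromosome 16, 44978748 to 45008901), the E2-like enzyme for ATG8 proteins, had 45.4, 49.8, 56.7 and 54.4 CPM in the KO-labelled libraries, 63.99, 60.5, 64.8 and 54.3 CPM in WT clone2 and 37.1, 41.9, 49.8 and 34.7 CPM in WT clone1. WT clone2 was above WT clone1 in every library, with the mean of the KO-labelled line between theirs (0.58 ± 0.12 for WT clone2 over WT clone1, edgeR adjusted p = 0.00129). The chromosome offset ended that call (0.29, edgeR adjusted p = 0.0544). Atg10 (chromosome 13, 91082795 to 91398070), the E2-like enzyme for Atg12, was weakly expressed. It had 2.01, 3.31, 3.54 and 2.37 CPM in the KO-labelled libraries, 4.02, 3.88, 3.93 and 4.46 CPM in WT clone2 and 1.20, 2.11, 2.92 and 1.69 CPM in WT clone1. Its level was higher in WT clone2 than in WT clone1 (1.04 ± 0.25, edgeR adjusted p = 0.00453), without overlap. Atg4b, the protease that trims and releases ATG8 proteins, was also higher in WT clone2 than in WT clone1 (0.34 ± 0.11, edgeR adjusted p = 0.0204). Atg7, the E1-like enzyme, and Atg12 were lower (-0.32 ± 0.09 and -0.32 ± 0.10, edgeR adjusted p = 0.0128 and 0.0218). The Atg4b call was lost without experiment 3 of WT clone2 (0.28, edgeR adjusted p = 0.0609), without experiment 3 of WT clone1 (0.30, 0.0606) and with the chromosome offset (0.24, 0.175). The Atg12 call was lost without experiment 1 of WT clone2 (-0.29, edgeR adjusted p = 0.0653) and without experiment 2 of WT clone1 (-0.26, 0.076). Atg16l1, which directs the Atg12-Atg5 conjugate to the membrane, was lower in the KO-labelled line than in WT clone2 (-0.30 ± 0.08, edgeR adjusted p = 0.00704), a call that the chromosome offset ended (-0.16, edgeR adjusted p = 0.151). Against the pooled wild type it was at -0.23 ± 0.08 (edgeR adjusted p = 0.0516). It was at -0.29 without both experiment 1 libraries that stood apart (edgeR adjusted p = 0.0423) and at -0.25 without experiment 4 of WT clone1 (edgeR adjusted p = 0.0435). The calls of Atg3 (0.34 ± 0.12) and Atg7 (-0.27 ± 0.09) in the KO-labelled line over WT clone1, and of Atg4b (-0.34 ± 0.11) and Atg12 (0.30 ± 0.10) over WT clone2, were each lost under 5 to 10 of the alternatives, mostly when single libraries were left out. Their edgeR adjusted p there ran over 0.0564 to 0.118 for Atg3, 0.0526 to 0.18 for Atg7, 0.0617 to 0.263 for Atg4b and 0.0545 to 0.112 for Atg12. Atg5 was the most even of the 34 members across lines by the 3-line test (edgeR adjusted p = 0.984). It averaged 32.3 ± 0.802 CPM in the KO-labelled line, 32.4 ± 1.28 CPM in WT clone2 and 32.1 ± 1.98 CPM in WT clone1 (SD, n = 4 each).

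Of the 5 ATG8 transcripts, 4 were called between the wild-type lines, 1 higher and 3 lower in WT clone2. The KO-labelled line differed from WT clone2 in 3 (2 higher, 1 lower) and from WT clone1 in 3 (all lower). Against the pooled wild type none was called by edgeR or DESeq2, and 1 had an unadjusted edgeR p under 0.05. Gabarapl2 (chromosome 8, 112667322 to 112682011) had 34.7, 30.9, 29.7 and 31.6 CPM in the KO-labelled libraries, 27.1, 24.8, 24.9 and 22.9 CPM in WT clone2 and 49.5, 44.4, 45 and 46.8 CPM in WT clone1. The 3 lines did not overlap, with the KO-labelled line in the middle. Its log2 fold change was 0.35 ± 0.08 over WT clone2 (edgeR adjusted p = 0.00449) and -0.55 ± 0.08 over WT clone1 (edgeR adjusted p = 0.000151). It was -0.90 ± 0.08 in WT clone2 over WT clone1 (edgeR adjusted p = 1.59e-06). Gabarap (chromosome 11, 69881888 to 69886109) had 239, 218, 217 and 193 CPM in the KO-labelled libraries, 148, 136, 179 and 131 CPM in WT clone2 and 226, 225, 219 and 228 CPM in WT clone1. WT clone2 was low for Gabarap and the other 2 lines overlapped. Gabarap rose by 0.55 ± 0.10 in the KO-labelled line over WT clone2 (edgeR adjusted p = 0.000806) and stood at -0.60 ± 0.10 in WT clone2 over WT clone1 (edgeR adjusted p = 0.000349).

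Gabarapl1 and Map1lc3b were chosen after their values were seen. Gabarapl1 had 53.2, 54.3, 55.5 and 48.1 CPM in the KO-labelled libraries, 70.5, 92.5, 75.04 and 72 CPM in WT clone2 and 44.4, 58.1, 56.6 and 58.2 CPM in WT clone1. Unlike Gabarap, Gabarapl2 and Map1lc3b, it was highest in WT clone2. The log2 fold change was -0.55 ± 0.11 in the KO-labelled line over WT clone2 (edgeR adjusted p = 0.00137) and 0.51 ± 0.11 in WT clone2 over WT clone1 (edgeR adjusted p = 0.00203). Map1lc3b, the LC3 form most used as a marker of autophagosomes, had 141, 122, 135 and 101 CPM in the KO-labelled libraries, 105, 106, 114 and 91.7 CPM in WT clone2 and 147, 158, 155 and 153 CPM in WT clone1. WT clone2 was lower than WT clone1 in every library (-0.56 ± 0.10, edgeR adjusted p = 0.000677). The call for the KO-labelled line against WT clone1 (-0.30 ± 0.10, edgeR adjusted p = 0.0364) was lost under 9 of the alternatives, at 0.0519 to 0.882. In edgeR, Map1lc3a was called for the KO-labelled line only against WT clone1 (-0.44 ± 0.16, edgeR adjusted p = 0.0492), a call lost under 10 of them, at 0.0579 to 0.14.

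**Figure D2:**
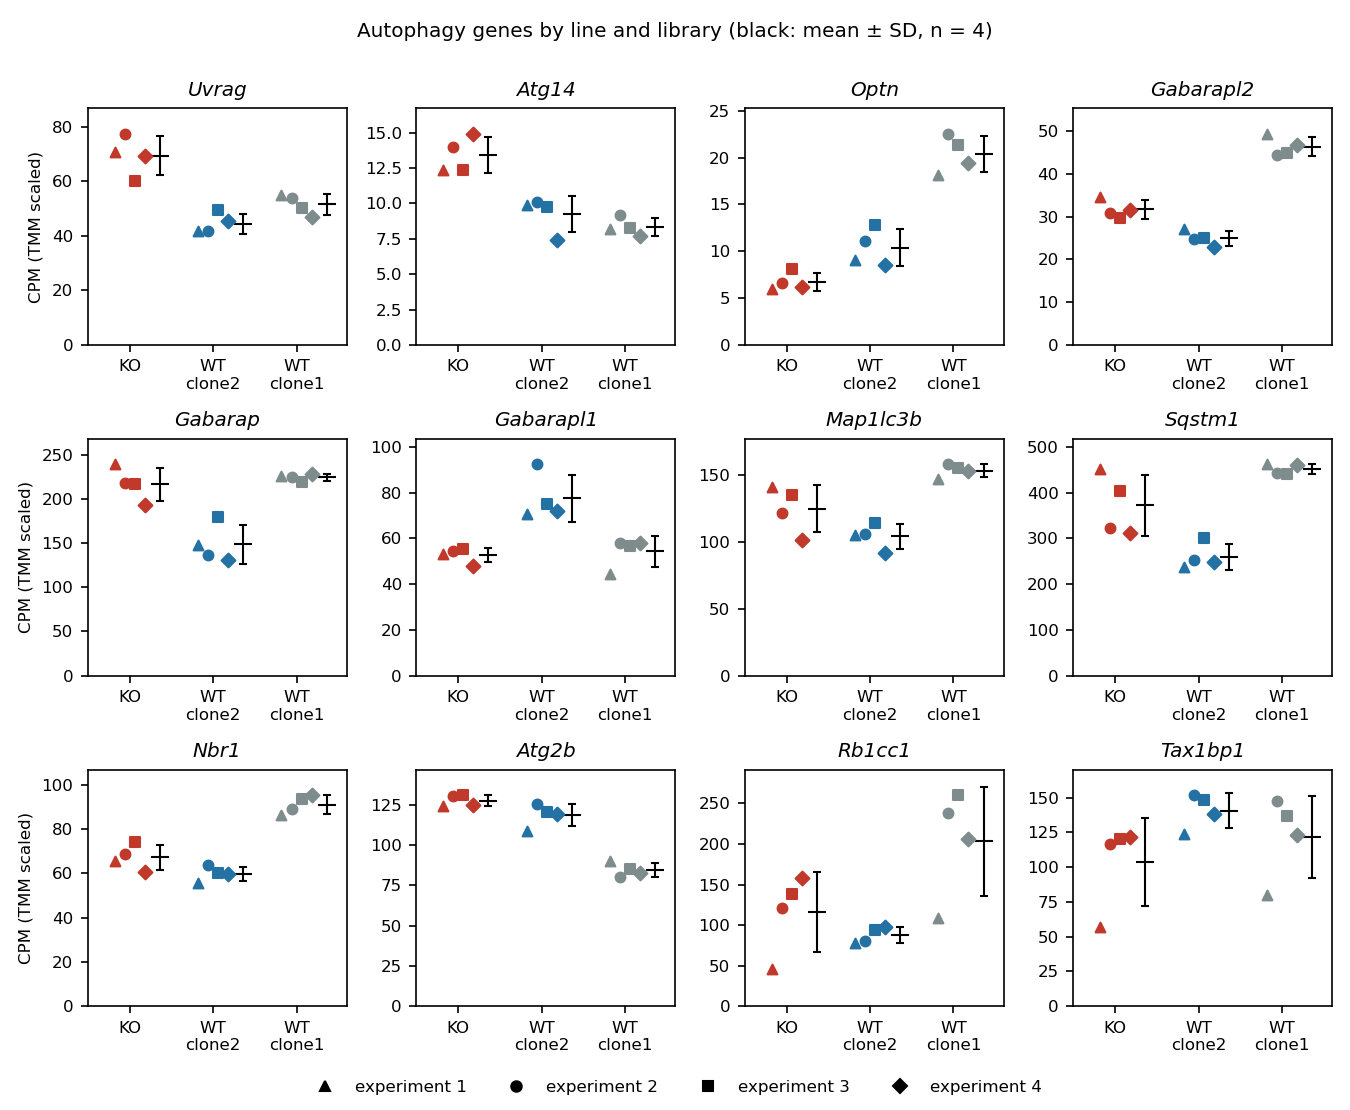
CPM scaled by TMM factors (y axis, from 0) of 12 autophagy genes in each library, for the KO-labelled line, WT clone2 and WT clone1. Marker shapes give the experiment number and the black bars the mean ± SD of 4 libraries. The KO-labelled libraries lie above all others for Uvrag and Atg14 and below all others for Optn. In each of the 3 lines the experiment 1 point is the lowest for Rb1cc1 and Tax1bp1.

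Per kilobase of exon, the scale on which genes can be compared, Gabarap was the most abundant member, with 87.1 ± 17.2 CPM per kb (mean ± SD, n = 12 libraries). Next came Sqstm1 (44.1 ± 11.1), Map1lc3a (34.2 ± 7.30), Map1lc3b (16.7 ± 3.10) and Gabarapl1 (16.6 ± 3.66). The lowest were Atg14 (2.09 ± 0.505), Optn (1.10 ± 0.551) and Atg10 (0.69 ± 0.248). These means use the union of a gene's exons, and their spread includes the line differences. Per kb of the longest transcript, Gabarap, Sqstm1 and Map1lc3a were again the highest, but Map1lc3b was at 30.8 ± 5.70, Wipi2 at 27.6 ± 1.48 and Tax1bp1 at 25.5 ± 5.90, above Gabarapl1 at 18.5 ± 4.07. On that scale Optn, at 2.94 ± 1.47, was above Atg14, at 2.78 ± 0.672, and Atg10 was again the lowest. Per kb of union exons, the ATG8 total was 163 ± 14.7 in the KO-labelled line, 141 ± 19.9 in WT clone2 and 184 ± 3.23 in WT clone1 (SD, n = 4 each). Within that total, Gabarap made up 59.1, 60.1, 57.6 and 59.4% in the KO-labelled libraries, 47.4, 44.8, 46.9 and 47.3% in WT clone2 and 55.4, 54.8, 51.5 and 54.8% in WT clone1, with no overlap between the lines. Gabarapl1 made up 8.80 ± 0.53% in the KO-labelled line, 15.1 ± 2.84% in WT clone2 and 7.98 ± 0.92% in WT clone1. Map1lc3a made up 17.6 ± 1.01% in the KO-labelled line, 24.5 ± 3.08% in WT clone2 and 21.2 ± 2.01% in WT clone1. Gabarapl2 and Map1lc3b made up 4.48 ± 0.39% and 10.0 ± 0.61% in the KO-labelled line, 4.09 ± 0.49% and 9.74 ± 0.63% in WT clone2, and 5.78 ± 0.35% and 10.9 ± 0.32% in WT clone1. These shares are a description with no test.

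**Figure D3:**
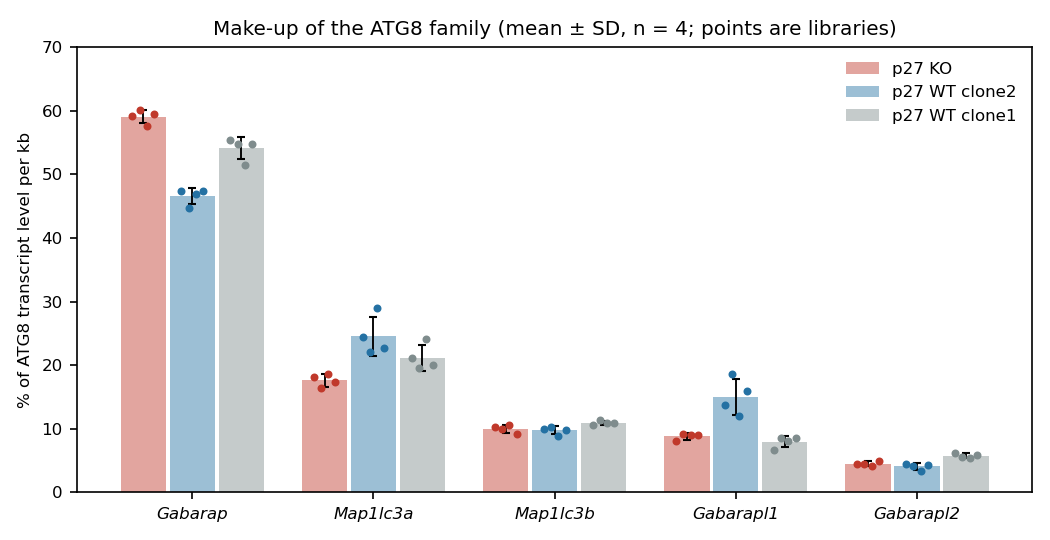
Share of each ATG8 transcript in the family total per kb of exon (y axis, %, from 0) for the KO-labelled line, WT clone2 and WT clone1. Bars are means, error bars SD and points the 4 libraries. Gabarap holds 57.6 to 60.1% in the KO-labelled libraries and 44.8 to 47.4% in those of WT clone2, where Gabarapl1 and Map1lc3a hold larger shares.

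Of the 5 cargo receptors, Optn was the one called against the pooled wild type, and Optn, Sqstm1 and Nbr1 were all lower in WT clone2 than in WT clone1. Optn (chromosome 2, 5022703 to 5068945) encodes optineurin, a ubiquitin-binding receptor for damaged mitochondria and bacteria. It had 6.02, 6.57, 8.05 and 6.23 CPM in the KO-labelled libraries, against 9.04, 11.1, 12.8 and 8.52 CPM in WT clone2 and 18.2, 22.6, 21.4 and 19.4 CPM in WT clone1. The 3 lines did not overlap, and the wild-type lines were themselves -0.98 ± 0.14 apart on the log2 scale (WT clone2 over WT clone1, edgeR adjusted p = 0.000102). In the KO-labelled line the log2 fold change was -1.19 ± 0.29 against the pooled wild type (edgeR adjusted p = 0.0115). By line it was -0.63 ± 0.15 against WT clone2 (edgeR adjusted p = 0.00464) and -1.60 ± 0.15 against WT clone1 (edgeR adjusted p = 2.41e-06). Genes on its chromosome, 2, were higher in the KO-labelled line by a median of 0.19 pooled, and with the chromosome offset Optn was at -1.38 (edgeR adjusted p = 0.00361). In bulk RNA, fewer cells expressing a gene and less of its RNA per cell cannot be told apart.

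Nbr1 (chromosome 11, 101442962 to 101472781), a receptor for ubiquitinated aggregates and peroxisomes, had 65.6, 68.6, 74.2 and 60.7 CPM in the KO-labelled libraries, 55.4, 63.5, 60 and 59.8 CPM in WT clone2 and 86.1, 89.03, 93.4 and 95.4 CPM in WT clone1. WT clone1 lay above the other 2 lines in every library. The log2 fold change was -0.44 ± 0.08 for the KO-labelled line over WT clone1 (edgeR adjusted p = 0.000819) and -0.61 ± 0.08 for WT clone2 over WT clone1 (edgeR adjusted p = 4.27e-05). Sqstm1 (chromosome 11, 50089572 to 50107684), which encodes p62, the receptor whose protein is degraded with its cargo, was chosen after its values were seen. It had 452, 322, 403 and 313 CPM in the KO-labelled libraries, 238, 252, 300.1 and 248 CPM in WT clone2 and 463, 444, 442 and 460.5 CPM in WT clone1. The KO-labelled line was above WT clone2 in every library (0.52 ± 0.12, edgeR adjusted p = 0.00347). It overlapped WT clone1 (-0.28 ± 0.12, edgeR adjusted p = 0.0818). Against the pooled wild type Sqstm1 was at 0.07 ± 0.22 (edgeR adjusted p = 0.869). WT clone2 over WT clone1 gave -0.80 ± 0.12 (edgeR adjusted p = 0.000116). Calcoco1, an endoplasmic reticulum and Golgi receptor, was called in no comparison, with a pooled value of -0.19 ± 0.11 (edgeR adjusted p = 0.243).

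Several members that fell together in WT clone2 lie on chromosomes whose genes were lower there as a whole. Over the 1099 tested genes of chromosome 11 the median log2 fold change of WT clone2 over WT clone1 was -0.28, with 6.64% called higher and 43.2% called lower. Of its 6 members, Becn1, Gabarap, Nbr1, Sqstm1 and Wipi1 were called lower by edgeR and DESeq2, and Ulk2 by DESeq2 alone (-0.22 ± 0.09, edgeR adjusted p = 0.0624). On chromosome 8 the median was -0.29 over 787 genes (7.24% higher, 43.8% lower) and both members, Gabarapl2 and Map1lc3b, were called lower. Chromosome 16, with Atg3 and Rubcn, had a median of 0.31, and chromosome 12, with Atg2b, 0.26. Chromosome 7, with Uvrag, had a median of -0.40 (5.46% higher, 51.9% lower), and chromosome 14, with Atg14, 0.36. With the chromosome offset 14 members were called between the wild-type lines in place of 18, 3 higher and 11 lower. Over all genes 5157 were called with it, in place of 6133. Gabarapl2 was then at -0.60 (edgeR adjusted p = 2.79e-05), Sqstm1 at -0.50 (edgeR adjusted p = 0.00204), Nbr1 at -0.30 (edgeR adjusted p = 0.0125) and Gabarap at -0.29 (edgeR adjusted p = 0.0224). Becn1 was at -0.07 and no longer called (edgeR adjusted p = 0.544), as were Wipi1, Atg3 and Atg4b at the values given above, and Atg13 at -0.19 (edgeR adjusted p = 0.117). Against these 5 lost calls, 1 was added.

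**Figure D4:**
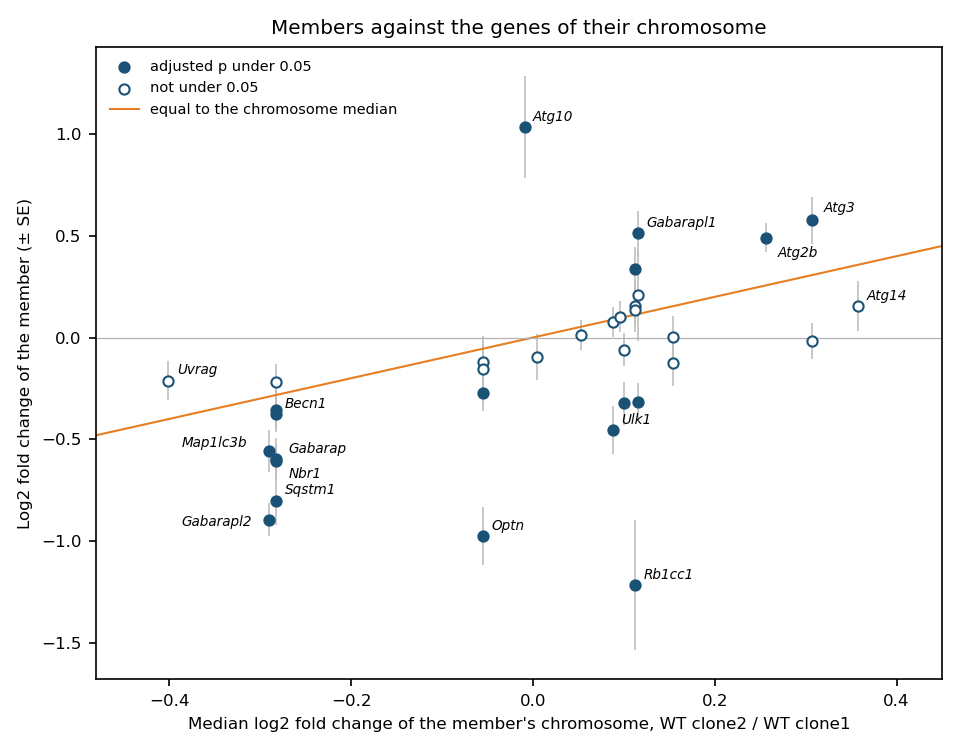
Log2 fold change ± SE of each autophagy gene in WT clone2 over WT clone1 (y axis) against the median log2 fold change of all tested genes on its chromosome (x axis). Filled points have an edgeR adjusted p under 0.05. The genes of chromosomes 8 and 11 form the column near -0.28, below the line of equality for Gabarapl2, Sqstm1, Nbr1, Gabarap and Map1lc3b and near it for Becn1. Optn and Rb1cc1 lie far below it on chromosomes with medians near 0.

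Neighbouring parts of the pathway were examined from 4 further lists of 49 genes in the table. Atg9b, Calcoco2 and Ccpg1 were not analysed here. Against the pooled wild type 7 of the 49 rose and 4 fell, and the median log2 fold change was 0.03, against -0.03 over all genes, of which 8.47% rose and 10.3% fell. Of 13 receptors for organelles and other cargo, 3 rose and none fell. Bnip3, a mitophagy receptor induced by hypoxia, had 15.94, 16.6, 17.2 and 17.02 CPM in the KO-labelled libraries, against 4.56, 4.34, 4.37 and 4.97 CPM in WT clone2 and 4.32, 4.56, 3.83 and 5.87 CPM in WT clone1. Its log2 fold change was 1.86 ± 0.11 against the pooled wild type (edgeR adjusted p = 3e-07). Ncoa4, the ferritin receptor, averaged 85.3 ± 10.04 CPM in the KO-labelled line (SD, n = 4) and 45.02 ± 10.96 CPM in the wild-type libraries (SD, n = 8), which gave 0.92 ± 0.17 on the log2 scale (edgeR adjusted p = 0.00268). Bnip3l, the paralogue of Bnip3, averaged 102 ± 4.09 CPM in the KO-labelled line and 77.6 ± 6.23 CPM in the wild-type libraries (0.39 ± 0.07, edgeR adjusted p = 0.00283). Both lie on chromosome 14, whose median was 0.18.

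Of 14 genes of autophagosome fusion with lysosomes, 4 rose and 2 fell. The tethering factor Epg5 (0.42 ± 0.07, edgeR adjusted p = 0.00102) and the HOPS and CORVET subunits Vps16 (0.36 ± 0.08, edgeR adjusted p = 0.00793) and Vps18 (0.46 ± 0.10, edgeR adjusted p = 0.00884) rose, each without overlap with the wild-type libraries. Vps16 and Vps18 lie on chromosome 2, whose pooled median was 0.19. Snap29 also rose, with overlap (0.33 ± 0.10, edgeR adjusted p = 0.0436). Ykt6 (-0.33 ± 0.10, edgeR adjusted p = 0.0323) and Stx17 (-0.36 ± 0.11, edgeR adjusted p = 0.032) fell, Ykt6 without overlap. Over all genes, 6.57% lay above all wild-type libraries without overlap and 7.3% below. Of 14 other core genes 1 fell: Atg16l2, the paralogue of Atg16l1, averaged 5.19 ± 0.860 CPM in the KO-labelled line and 11.1 ± 2.22 CPM in the wild-type libraries (-1.10 ± 0.18, edgeR adjusted p = 0.00108). Of 8 transcription regulators of autophagy 1 fell, Mitf, a MiT/TFE factor, at 1.64 ± 0.536 CPM in the KO-labelled line and 5.48 ± 1.49 CPM in the wild-type libraries (-1.74 ± 0.28, edgeR adjusted p = 0.000914). Its relatives Tfeb and Tfe3 were at -0.57 ± 0.22 and -0.12 ± 0.14 and missed the threshold (edgeR adjusted p = 0.0908 and 0.62).

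In the authors' deposited table, whose tool is not given in the sources used here, 11 of the 34 members had an adjusted p under 0.05, 5 with a positive and 6 with a negative log2 fold change, against 30.7% of all its genes. The authors' deposited table gave log2 fold changes of 0.53 for Uvrag, 0.61 for Atg14 and -1.19 for Optn. The direction of that table was read from its signs, taken as p27 KO over wild type. Reads of overlapping genes could be shared, since the strand setting is not given in the sources used here. Here 6 members share over 10% of their exonic bases with another gene. They are Becn1, Atg13, Gabarapl1, Atg9a, Sqstm1 and Atg3, and each of their values carries that uncertainty. Within a line, the median coefficient of variation of a member over its 4 libraries was 9.08% in the KO-labelled line, 7.74% in WT clone2 and 7.39% in WT clone1.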

How the data were processed

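RNA-seq libraries of 3 fibroblast lines were grouped by the sample titles: p27 KO, p27 WT clone2 and p27 WT clone1, 4 libraries each. Reads were paired-end, 150 bp long, per the labels' protocols. Per the labels and the series' design text, STAR 2.5.4a aligned them to GRCm39 and counted them on a GENCODE annotation, after a FastQC quality check. The annotation release, strand setting and gene filter are not named in any source used. The deposited table lists raw read counts per gene. Its 51 entries lacking an identifier (2.04 to 5.25% of a library's counts) were left out. The authors also deposited CPM (count over column total), log2 CPM and their own comparison, with a mean normalised signal, log2 fold change, standard error, test score, p-value and adjusted p-value. Named-gene counts (15.4 to 24.0 M) exceed the planned 10 M reads per sample.

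Tests used edgeR 4.0.16 (R 4.3.3) on counts (TMM, filterByExpr, quasi-likelihood F tests, two-sided, Benjamini-Hochberg adjustment over the 14392 genes tested, threshold 0.05): 1 fit of p27 KO against both wild-type clones pooled, and 1 with a mean per line for the contrasts between lines. SE is the absolute log2 fold change over the square root of F, an approximation. Methods were tested on simulated data with independent libraries and no difference between the wild-type clones. That simulation does not cover differences between lines of the same genotype. CPM here is per 1 M counts in named genes, TMM scaled; levels per kb use the union of a gene's exons in GENCODE vM39. Same-numbered libraries of the wild-type clones had deviations correlated at 0.109 to 0.297, and differently numbered ones ran from -0.3 to 0.209. These correlations do not settle whether experiment numbers pair libraries, and the main fits left the number out. Alternatives were DESeq2 1.42.0, DESeq2 size factors in edgeR, all genes kept, the experiment as a block, each library left out, both experiment 1 libraries left out, limma-voom (limma 3.58.1) with a random line effect, counts summed per line and a chromosome offset. Library values are given for members called against the pooled wild type and for the 2 members per step with the smallest adjusted p in the 3-line test. Related lists name up to 3 called genes each, except the fusion list, where all called genes are named. Members and lists were chosen with earlier results of these data known.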

Additional observations from a re-analysis of the deposited data

Results flagged for a closer look

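In groups of 4 libraries, a value was singled out when its gap to the nearest of the others exceeded Dixon's critical share of the group's range. Of 105 groups looked at (34 members and Cdkn1b in 3 lines), 7 gave such a value, and chance alone gives about 1 in 20 groups. Tax1bp1 was lowest in experiment 1 of the KO-labelled line, at 56.7 CPM, against 117 to 122 CPM in the other 3 libraries. Gabarapl1 was lowest in experiment 1 of WT clone1, at 44.4 CPM, against 56.6 to 58.2 CPM in the others. These 2 libraries are the ones with few mitochondrial and many ribosomal protein counts, and the part this has in the low values was not tested. The remaining 5 values came from WT clone2: Ulk1 at 42.8 CPM in experiment 2, against 47.8 to 48.6 CPM in the other libraries; Atg14 at 7.39 CPM in experiment 4, against 9.73 to 10.1 CPM; Ambra1 at 59.6 CPM in experiment 4, against 55.8 to 56.3 CPM; Atg4b at 67.3 CPM in experiment 3, against 57.7 to 58.4 CPM. Cdkn1b was highest in experiment 2 of that line, at 120.0 CPM, against 88.6 to 92.9 CPM.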

How the results depend on the processing

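Uvrag, Atg14 and Optn kept their direction under every alternative run, and their edgeR or DESeq2 adjusted p stayed under 0.05 with DESeq2, its size factors, no filter, each library left out, both experiment 1 libraries left out, the experiment block and the chromosome offset; Optn reached 0.0497 without both experiment 1 libraries. With a random line effect these calls were lost. Limma-voom, with the same correlation for all genes, called 0 members (0 higher, 0 lower) and 230 of all genes (120 higher, 110 lower), against 3 members and 2700 genes. Counts summed per line leave 1 KO-labelled sum against 2 wild-type sums, too few for a test to decide. DESeq2 called 5 members in the pooled comparison, 2 of them lower (Rubcn and Atg16l1 were added). Lower members were 2 without both experiment 1 libraries (Atg16l1 added) and 2 with the chromosome offset (Map1lc3a added). Without both experiment 1 libraries, 3 members had all remaining KO-labelled libraries below all wild-type ones, against 1. Fewer libraries separate more easily, and the share over all genes in that smaller set was not computed. The chromosome offset, added after the data were seen, gave 8 members against WT clone1 (2 higher) and 3 higher in WT clone2 over WT clone1. The median level per kb of the members was 6.62 with union exons and 10.0 with the longest transcript.

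Leaving out single libraries moved the members called from 3 to 5 in the pooled comparison (2 to 3 higher, 1 to 2 lower; 5 without WT clone2 experiment 2, where Atg2b and Ulk2 were added, and 2 lower without WT clone1 experiment 4, where Atg16l1 was added), 9 to 12 against WT clone2, 9 to 14 against WT clone1, 16 to 18 between the wild-type clones and 20 to 23 in the 3-line test. Of all genes, 1830 to 2999 were called in the pooled comparison (839 to 1426 higher, 982 to 1573 lower), with the fewest lower calls without experiment 4 of the KO-labelled line. Calls over all genes ran from 4653 to 5749 against WT clone2 and from 4392 to 5518 against WT clone1. They ran from 5342 to 6770 between the wild-type clones and from 7394 to 8470 in the 3-line test.

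Pooled values near 0 changed sign, none of them called. Without both experiment 1 libraries Atg101 was at -0.0030, Atg9a at -0.021, Atg2a at -0.081 and Wipi2 at -0.048. With the chromosome offset Atg2a was at -0.061, Ambra1 at -0.030, Atg5 at -0.059, Atg7 at 0.0094 and Map1lc3b at 0.10. With single libraries left out, values ran from -0.012 to 0.13 for Atg101, -0.017 to 0.22 for Atg9a, -0.090 to 0.10 for Atg2a, -0.035 to 0.048 for Wipi2, -0.026 to 0.075 for Becn1, -0.045 to 0.079 for Atg3, -0.013 to 0.024 for Atg5, -0.24 to 0.022 for Atg10, -0.11 to 0.060 for Map1lc3b and -0.038 to 0.16 for Sqstm1. The cause of these changes was not tested.

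With the experiment number as a replicate block, 3 members were called in the pooled comparison (2 higher, 1 lower), 15 against WT clone2, 16 against WT clone1, 19 between the wild-type clones and 25 in the 3-line test, and no member called without the block lost its call. Same-numbered libraries of the KO-labelled line correlated at 0.0421 to 0.312 with WT clone2 and 0.0996 to 0.75 with WT clone1 (0.75, 0.296, 0.329 and 0.0996 by number). All of these were positive. Differently numbered pairs ran from -0.306 to 0.236 with WT clone2 and from -0.541 to 0.407 with WT clone1. Since 1 pair in each set lay under 0.1, the numbers were not taken to pair these lines, although 3 of 4 pairs with WT clone1 were above it. That choice does not settle whether they do. Experiment 4 of the KO-labelled line correlated better with experiment 2 of WT clone1 (0.407) than with its own number. Likewise, experiment 2 of WT clone1 correlated better with experiment 4 of WT clone2 (0.209) than with its own number (0.109). At 15.4 to 24.0 M counts, Atg10 (1.20 to 4.46 CPM) is the member whose values depth limits most.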
